A study of Mus musculus with 2 samples.

Results

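The sarcoglycans and their partners in the dystrophin complex were described here as a group of 7 genes, Sgcz, Sgcb, Sgcd, Sgce, Dag1, Dmd and Utrn, out of 55488 gene rows in the count tables of newborn mouse kidney. They were found by their symbols. Sgcz was picked from these same data for its low level in loop of Henle cells of the knockout library, so its values there are a description with no test, and the other 6 were taken with it as genes of the same complex. The data are 2 single-cell RNA-seq libraries of kidneys at postnatal day 0, labelled Flcn WT and Flcn KO (called WT and KO below), although the tissue label reads embryonic kidney. Flcn is the gene of folliculin, known as a regulator of signalling at lysosomes. The design text gives the genotypes as Six2Cre; Flcn flox/+ and Six2Cre; Flcn flox/flox, so the library labelled WT is heterozygous for the floxed allele and both carry Cre. Six2-Cre acts in nephron progenitors and the nephron epithelium that comes from them, and leaves the ureteric bud, stroma, vessels and immune cells outside its reach. The number of animals behind a library is not given.

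The dystrophin complex ties the actin skeleton of a cell to the matrix outside it. Dystrophin, or its relative utrophin, binds actin inside the cell and dystroglycan in the membrane, dystroglycan binds laminin, agrin and perlecan through its sugar chains, and the sarcoglycans form a small membrane assembly at its side. The complex is best known from muscle, where its loss causes muscular dystrophy, and in kidney dystroglycan is a matrix receptor of podocytes and tubule epithelium.

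The libraries held 5572 WT and 5991 KO cell barcodes, of which 4000 and 4798 cells were kept, with a median of 20934 and 18455 UMIs (unique molecules) per cell, and 5 barcodes occurred in both. Cells were placed in 12 classes from marker genes, and 450 WT and 547 KO cells stayed unnamed. With 1 library per genotype there is no replicate check: no difference between genotypes could be tested, and the library and the genotype cannot be told apart. Levels are UMIs summed over the cells of a class, as counts per 1000000 nuclear-encoded UMIs (CPM). Every ratio is KO over WT with a 95% interval, which here and throughout covers counting error alone. The Flcn transcript was counted in both libraries (loop of Henle 8.4 CPM in WT and 9.58 CPM in KO), and since reads come from the 3′ end and the deleted exons are not named in the sources used here, its count does not check the deletion.

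The loop of Henle class held 226 WT and 272 KO cells and was named from 12 markers, all 12 of which had UMIs in both libraries. Slc12a1, the salt transporter of the thick ascending limb, stood at 4405 CPM in WT and 3436 CPM in KO. Umod, which encodes uromodulin, stood at 586 and 2450 CPM. Skeletal muscle, a source of dystrophin complex transcripts, left little trace in the class: of 6 muscle markers 3 had any UMI and 3 were at 0 in each library, with a summed level of 2.48 CPM in WT and 1.26 CPM in KO. With finer clustering the cells named loop of Henle lay in a mixed cluster of 152 WT and 28 KO cells, led by Slc12a1 and Pappa2, and in a cluster of 0 WT and 175 KO cells, led by Umod and Ptger3, so different clusters hold most of the class in the libraries. Markers of other types in the class moved too: the summed level of 10 podocyte markers was 306 CPM in WT and 955 CPM in KO, and that of 10 early nephron markers 2112 and 1303 CPM, all with UMIs in both libraries. The sum over 9 intercalated markers was 42.8 CPM in WT, with all 9 detected, and 9.78 CPM in KO, with 2 at 0. Their part in the results below was not tested.

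The genes differ widely in length, and since it is not known whether intronic reads were counted, the UMIs of the longest ones may come from introns to an unknown extent. On GRCm38 (GENCODE M21), Sgcz (ENSMUSG00000039539) spans chr8:37522298-38661508 on the minus strand, 1139 kb, and Sgcd (ENSMUSG00000020354) spans chr11:46896253-47988969, 1093 kb. Dmd (ENSMUSG00000045103) spans chrX:82948870-85206141 on the plus strand, 2257 kb, and Utrn (ENSMUSG00000019820) spans chr10:12382188-12869365, 487 kb. The others are compact: Sgcb (ENSMUSG00000029156) lies at chr5:73632749-73647790, Sgce (ENSMUSG00000004631) at chr6:4674350-4747207 and Dag1 (ENSMUSG00000039952) at chr9:108204634-108263958. Genes inside or across these spans were nearly silent in loop of Henle cells. The microRNA gene Mir383, inside Sgcz, had 0 UMIs in both libraries, the 2 genes on the opposite strand of Sgcz together had 8 WT and 0 KO UMIs, and the largest sum on the same strand was 9 WT and 6 KO UMIs, for genes inside Utrn.

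The series title names the transcription factor TFEB, which binds E-box sequences with the core CACGTG, so the 250 bases before the start of each member were searched for those letters. The core reads the same on both strands. RefSeq (GRCm38.p6) gave starts for 5 of the 7 genes, Sgcb, Sgcd, Dag1, Dmd and Utrn, and 2 of these, Sgcd and Utrn, held the core. Of all 27025 genes with an entry 6.86% held it. A window of 30 bases around each match is shown, 5′ to 3′ on the gene's minus strand, with the core in capitals. The matches begin 244 bases before the Sgcd start and 139 bases before the Utrn start. Both starts lie inside the longer GENCODE spans. These are matches of letters, and binding was not measured.
Sgcd (chr11:47379546-47379575): ttgacaCACGTGtttcccattgatatctgg
Utrn (chr10:12861857-12861886): gcctctgacctcCACGTGcacatgcacaca

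Sgcz encodes zeta-sarcoglycan, a sarcoglycan related to the delta form. In the WT library it marked 2 classes that are far apart in nephron development. The loop of Henle class had 9633 Sgcz UMIs, or 663 CPM, and nephron progenitors had 6172 UMIs, or 404 CPM, and these classes held 55.8% and 35.7% of the gene's UMIs in kept cells. The early nephron class, between them in development, stood far lower, at 7.83 CPM, with its clusters from 0.894 to 43.0 CPM. An unnamed cluster led by Bmper and Fam107a, which scored highest for progenitor and then early nephron markers, stood at 69.8 CPM. Proximal tubule, the lowest class, had 10 UMIs in 353 cells, 0.635 CPM. Outside the nephron the WT levels were 25.7 CPM in stroma, 20.7 CPM in ureteric bud and collecting duct, 19.2 CPM in intercalated cells and 18.9 CPM in endothelium, and the counting intervals of each 2 neighbours in this order overlapped.

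In KO loop of Henle cells 179 Sgcz UMIs were counted, 11.8 CPM against the 663 CPM of WT. The ratio that chose the gene was 0.0178 (0.0153 to 0.0207), a level 56.1-fold lower. In the KO library the order of classes differed at the top: nephron progenitors led at 215 CPM, podocytes (57.4 CPM) and 14 intercalated cells (56.1 CPM, 36 of 48 UMIs from 1 cell) followed, and the loop of Henle class stood at 11.8 CPM, between early nephron cells at 6.91 CPM and endothelium at 14.3 CPM, whose counting interval overlapped its own. The loop of Henle class held 4.61% of the gene's UMIs in kept KO cells.

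**Figure D1:**
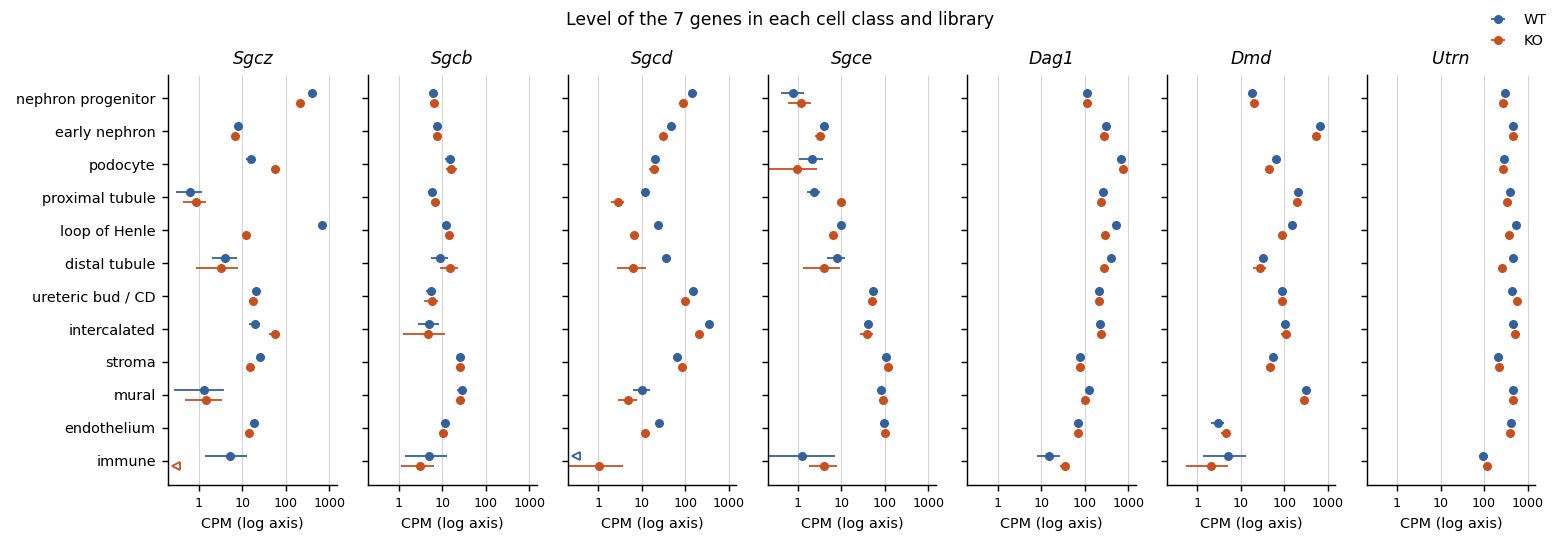
Level of each of the 7 genes (CPM, log axis) in the 12 cell classes, WT in blue and KO in orange, with bars for the exact 95% Poisson interval of the UMI sum and an open triangle at the left edge for a count of 0. Sgcz in WT stands at 663 CPM in the loop of Henle class and 404 CPM in nephron progenitors, and in KO at 11.8 and 215 CPM.

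The Sgcz UMIs of the WT loop of Henle class were spread unevenly over its cells. At least 1 UMI was seen in 113 of 226 WT cells, at least 10 in 78 and at least 100 in 31. The 23 richest cells held 71.6% of the UMIs, and the richest cell, with 121474 nuclear UMIs in all, held 1138, or 11.8%. In KO, 45 of 272 cells had a UMI, 5 had at least 10 and 0 had at least 100, and the richest cell held 32. The WT top lies far above the KO top, while the cells with no UMI are found in both libraries.

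The gap in these shares was also present at equal depth. After each cell was thinned to 3000 UMIs, which left out 9 WT and 6 KO cells, Sgcz was seen in 33.6% of 217 WT cells (27.4 to 40.3, exact Clopper-Pearson) and in 1.5% of 266 KO cells (0.411 to 3.81), against 50% and 16.5% before thinning. In endothelium, read as a class beside it, the thinned shares were 4.75% in WT and 2.40% in KO (13.1% and 10.2% before thinning), with median depths of 21958 and 26450 UMIs per cell against 43440 and 46987 in the loop of Henle class. Thinning did not settle whether the KO loop of Henle share lies above the endothelial one. The loop of Henle share was lower at 3000 UMIs and higher at 1500 UMIs (2.95% against 1.74%) and before thinning. Each depth was 1 random draw, and the KO loop of Henle share was larger at the lower depth, which depth alone cannot give. By level, KO loop of Henle cells (11.8 CPM) lay below endothelium (14.3 CPM) and above proximal tubule (0.857 CPM) and mural cells (1.45 CPM). In proximal tubule 8 of 266 KO cells had a UMI before thinning and 0 of 264 after it, which allows a share of up to 1.39% at that depth (exact Clopper-Pearson).

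Sgcz was higher in the WT loop of Henle cells that were rich in Umod. The cells of each library were divided at the median Umod level of the WT cells, 1.62 UMIs per 10000, with 11 cells of each library close to that level. WT cells above it held 992 CPM of Sgcz and those at or below it 369 CPM, 113 cells each, with 69.0% and 31.0% of the cells having a UMI. The lower level rests on few cells: without the 2 WT cells richest in Sgcz it was 124 CPM, and without the cells close to the median 199 CPM. KO cells held 13.9 CPM above it (175 cells) and 7.40 CPM at or below it (97 cells). The ratio was 0.0140 (0.0118 to 0.0166) in the upper range and 0.0200 (0.0140 to 0.0278) in the lower range. The lower-range ratio was 0.0598 (0.0416 to 0.0834) without the 2 richest WT cells, 0.0391 (0.0273 to 0.0544) without the cells close to the median and 0.0860 (0.0597 to 0.120) without both, while in the upper range it stayed between 0.0140 and 0.0149. These exclusions were chosen after seeing the data. KO was lower in both ranges under each of them. The cut is a range of a score and not a cell type.

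**Figure D2:**
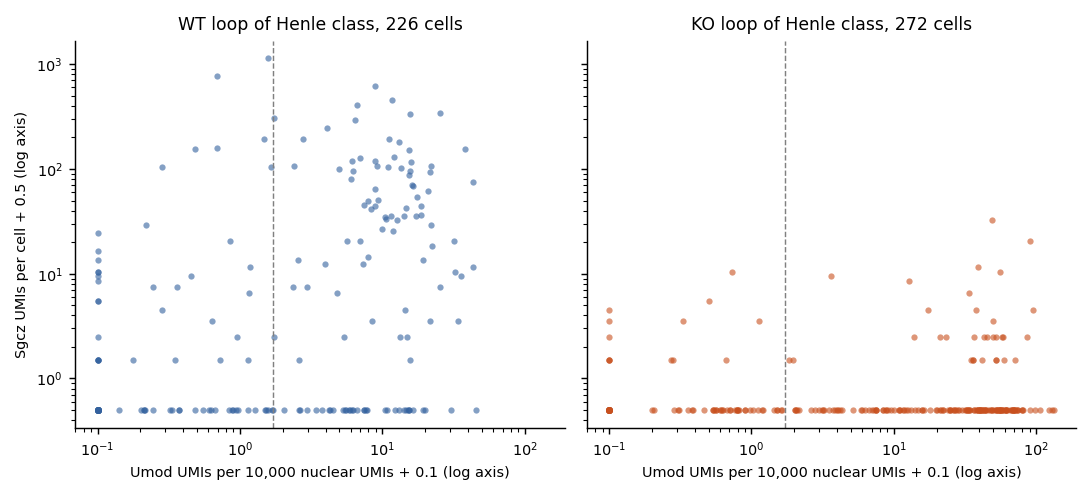
Each point is a cell of the loop of Henle class, placed by its Umod level (UMIs per 10000 nuclear UMIs plus 0.1, log axis) and its Sgcz UMIs (plus 0.5, log axis), with 226 WT cells on the left and 272 KO cells on the right; the dashed line is the WT median of Umod. WT cells reach 1138 Sgcz UMIs and KO cells reach 32, while KO cells extend to higher Umod levels.

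In the finer clusters the picture of Sgcz was the same in kind. The mixed cluster held 9468 WT and 15 KO UMIs, 1182 and 11.9 CPM. The cluster filled by KO cells held 136 UMIs, 13.3 CPM. KO cells in both clusters stood near the same level.

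Sgcz was also lower in KO nephron progenitors, the other class in which WT cells were rich in it. Progenitors had 6172 WT and 2240 KO UMIs, 404 and 215 CPM, a ratio of 0.532 (0.507 to 0.559). At least 1 UMI was seen in 58.8% of 502 WT and 40.5% of 400 KO cells (40.6% and 22.3% after thinning). The class was made of 2 clusters, and both showed it. In the cluster led by Nell1 the levels were 553 and 277 CPM (ratio 0.501). In the cluster led by Cenpf, with Top2a also among its leading genes, they were 188 and 107 CPM (ratio 0.568). Cenpf and Top2a are genes of dividing cells, and Six2 was among the leading genes of both clusters. Within each library the cluster led by Nell1 thus held more Sgcz than that led by Cenpf.

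Podocytes, the filter cells of the glomerulus, went the other way. They had 82 Sgcz UMIs in 18 of 193 WT cells and 185 UMIs in 21 of 117 KO cells, 15.5 and 57.4 CPM, a ratio of 3.71 (2.85 to 4.88). The richest podocyte held 19 UMIs in WT and 25 in KO, against class sums of 82 and 185. The ratio ranged from 1.77 to 4.93 over the other ways of processing the cells. The shares of podocytes with a UMI were 4.19% in WT and 12.4% in KO after thinning, and their intervals, 1.83 to 8.09 and 6.94 to 19.9, overlapped. In stroma the Sgcz ratio was 0.592 (0.516 to 0.679). The class leaves out an unnamed cluster led by Nrxn3 and Nts. That cluster scored highest for stroma markers, at 0.346 with a lead of 0.00722 over mural markers. It had 5 WT and 196 KO Sgcz UMIs, 3.26 and 50.2 CPM, a ratio of 15.4 (6.48 to 47.9). The named stroma clusters differed too. The cluster led by Gria1 and Khdrbs2 gave 1.06 (0.867 to 1.29) and that led by Dlk1 and Postn 1.41 (0.785 to 2.64), while those led by Synpo2 (195 WT and 491 KO cells) and Zim1 (206 and 461 cells) gave 0.345 (0.252 to 0.471) and 0.158 (0.0647 to 0.353), and the other two gave 0.399 and 0.784. Endothelium gave 0.755 (0.625 to 0.913), with 2.91 (1.56 to 5.92) in the cluster led by Sox17 and Gja4 and 0.618 (0.501 to 0.760) in that led by Plvap, and 1.34 as a mean over cells. The ratio was 0.856 (0.662 to 1.10) in ureteric bud and collecting duct. It was 0.882 (0.696 to 1.11) in early nephron cells, where it ranged from 0.173 to 3.39 over other ways of processing. The early nephron clusters differed. The cluster led by Lhx1 and Sfrp2 gave 1.36 (1.01 to 1.82) and that led by Dab1 and Rnase12 gave 0.288 (0.180 to 0.452). The cluster led by Grid1 and Galntl6 had 9 WT and 3 KO UMIs. Proximal tubule, distal tubule and mural cells had fewer than 50 UMIs in all.

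The genes whose levels over the 12 classes of both libraries (24 points, log2 of CPM + 1) followed Sgcz most closely reached only moderate likeness. The 8 highest Pearson correlations ran from 0.765 to 0.792 among 17651 genes and belonged to AW046200, Rgmb, Mzf1, Atxn7l2, Ttc14, Hmga2, Gtf3c5 and Zfp280c. The points share library and depth, and only Rgmb stayed among the top 8 by rank correlation. In loop of Henle cells, whose levels enter these correlations, Rgmb stood at 28.6 and 16.7 CPM in WT and KO and Hmga2 at 150 and 95.6 CPM, while Ttc14 stood at 115 and 103 CPM and Gtf3c5 at 13.6 and 12.03 CPM. Of the other members Sgcd was nearest, at 0.595.

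Sgcd encodes delta-sarcoglycan, a core member of the sarcoglycan assembly. Its level was highest in intercalated cells in both libraries, 353 CPM in 39 WT cells and 208 CPM in 14 KO cells. Ureteric bud and collecting duct followed at 150 and 101 CPM, close to nephron progenitors at 142 and 91.0 CPM. The lowest of the nephron classes was proximal tubule, at 12.1 CPM in WT and 2.78 CPM in KO, and immune cells had 0 WT and 2 KO UMIs.

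Sgcd was lower in all 3 KO tubule classes. Loop of Henle cells had 349 WT and 100 KO UMIs, 24 and 6.61 CPM, a ratio of 0.275 (0.218 to 0.344), beside the lower sum of intercalated markers in KO given above. Proximal tubule had 190 and 39 UMIs (ratio 0.231, 0.159 to 0.327), and distal tubule had 88 and 8 UMIs (ratio 0.176, 0.0735 to 0.361). The proximal tubule value mixes 2 clusters. The smaller, led by Serpina6 and Aadat (79 WT and 31 KO cells), held 134 and 13 of the UMIs, a ratio of 0.188 (0.0974 to 0.332). The larger (274 and 235 cells) stood at 4.47 and 2.10 CPM, a ratio of 0.471 (0.284 to 0.763). Within loop of Henle cells the ratio was lower among Umod-rich cells, 0.0855 (0.0522 to 0.134), where 172 WT and 22 KO UMIs were counted, than among Umod-poor cells, 0.694 (0.525 to 0.911). Class definition moved the loop of Henle ratio: it was 0.123 with the finer clusters, which left 152 WT and 203 KO cells.

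In earlier nephron cells Sgcd differed less. Nephron progenitors had a ratio of 0.639 (0.592 to 0.690). Early nephron cells had 0.666 (0.600 to 0.738), but their clusters disagreed: the cluster led by Lhx1 and Sfrp2 stood at 35.6 CPM in WT and 39.9 CPM in KO, while the cluster led by Grid1 and Galntl6 stood at 51.8 and 18.5 CPM. The early nephron ratio turned to 1.18 when each cell was classed by its own markers and to 1.25 without doublet removal. Podocytes gave 0.930 (0.668 to 1.28).

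Sgcd ratios were not near 1 outside the Six2 lineage either. They were 0.670 (0.606 to 0.741) in ureteric bud and collecting duct, 0.590 (0.5 to 0.693) in intercalated cells and 0.471 (0.391 to 0.567) in endothelium. The ureteric bud and collecting duct cluster led by Nrg3 and Rprm gave 0.787 (0.710 to 0.872). That led by Gm36388 and Aldh1a3, with 136 WT and 18 KO UMIs, gave 0.164 (0.0944 to 0.269). Stroma gave 1.29 (1.2 to 1.38), and its clusters split. The cluster led by Gria1 and Khdrbs2 went from 136 to 286 CPM (ratio 2.10, 1.92 to 2.30) and that led by Brinp1 and Dkk1 from 45.2 to 119 CPM (ratio 2.64, 2.10 to 3.32), while the cluster led by Synpo2 and Lrriq1 went from 16.8 to 4.68 CPM (ratio 0.279, 0.174 to 0.444). Differences of this size in cells that Six2-Cre does not reach stand beside the tubule ratios, and the part of the library in them was not tested.

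Sgcb encodes beta-sarcoglycan, which pairs with the delta form. It was a low and even transcript, from 5.06 CPM in immune cells to 28.3 CPM in mural cells in WT. Loop of Henle cells had 183 WT and 219 KO UMIs, 12.6 and 14.5 CPM, a ratio of 1.15 (0.940 to 1.41). In each of the 9 compared classes with at least 50 Sgcb UMIs the interval of the ratio held 1, with ratios from 0.928 in endothelium to 1.17 in proximal tubule. For stroma, the class with most UMIs (435 and 707), the interval ran from 0.883 to 1.13. Sparse classes moved with processing, with podocyte ratios up to 2.09 and nephron progenitor ratios down to 0.552.

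Sgce encodes epsilon-sarcoglycan, a widely expressed form that can stand in for the alpha form, and the gene is imprinted. Its levels were higher in most classes outside the Six2 lineage than in those within it. WT levels were 108 CPM in stroma, 93.2 CPM in endothelium, 81.3 CPM in mural cells, 52.9 CPM in ureteric bud and collecting duct and 39.9 CPM in intercalated cells, while every class of the Six2 lineage stood at 9.92 CPM or less, and nephron progenitors at 0.785 CPM. KO levels kept that difference, with 116 CPM in stroma and 102 CPM in endothelium. Immune cells, also outside the Six2 lineage, were low, at 1.27 CPM in WT (1 UMI) and 4.06 CPM in KO. Within ureteric bud and collecting duct, the cluster led by Gm36388 and Aldh1a3 was low as well, at 2.05 and 8.46 CPM. The ratio was 1.07 (1.01 to 1.13) in stroma, 1.09 (1.01 to 1.18) in endothelium and 0.970 (0.835 to 1.13) in ureteric bud and collecting duct.

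Proximal tubule departed from this. It had 37 WT and 138 KO Sgce UMIs, 2.35 and 9.85 CPM, a ratio of 4.19 (2.90 to 6.20), which makes Sgce the single member at least 1.5-fold higher there, beside 14.0% of all genes with enough UMIs, and Sgcd the single member at least 1.5-fold lower, beside 11.1%. Both clusters of the class showed it, 2.07 and 9.71 CPM in the larger and 3.43 and 10.9 CPM in the smaller. With finer clustering 104 of the KO UMIs lay in a cluster of 7 WT and 177 KO cells led by Kcnip4 and Havcr1, a marker of injured proximal tubule, where the WT cells gave 14.4 CPM and the KO cells 10.8 CPM. In the same class Peg10, the imprinted neighbour of Sgce, stood at 0.445 CPM in WT and 11.3 CPM in KO (ratio 25.4, 12 to 64.1). Peg10 was chosen after its values were seen. Its 158 KO UMIs lay in 23 of 266 cells, 38 of them in 1 cell, while 63 of the 266 had an Sgce UMI. Over other ways of processing the Sgce ratio ranged from 2.2 to 13.1, and it was 3.86 without the KO-rich finer cluster, which left 346 WT and 89 KO cells. In loop of Henle cells Sgce had 144 WT and 99 KO UMIs, a ratio of 0.660 (0.506 to 0.858), which became 1.24 when each cell was given equal weight, and in the mixed finer cluster it was 0.985 (0.504 to 1.78).

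**Figure D3:**
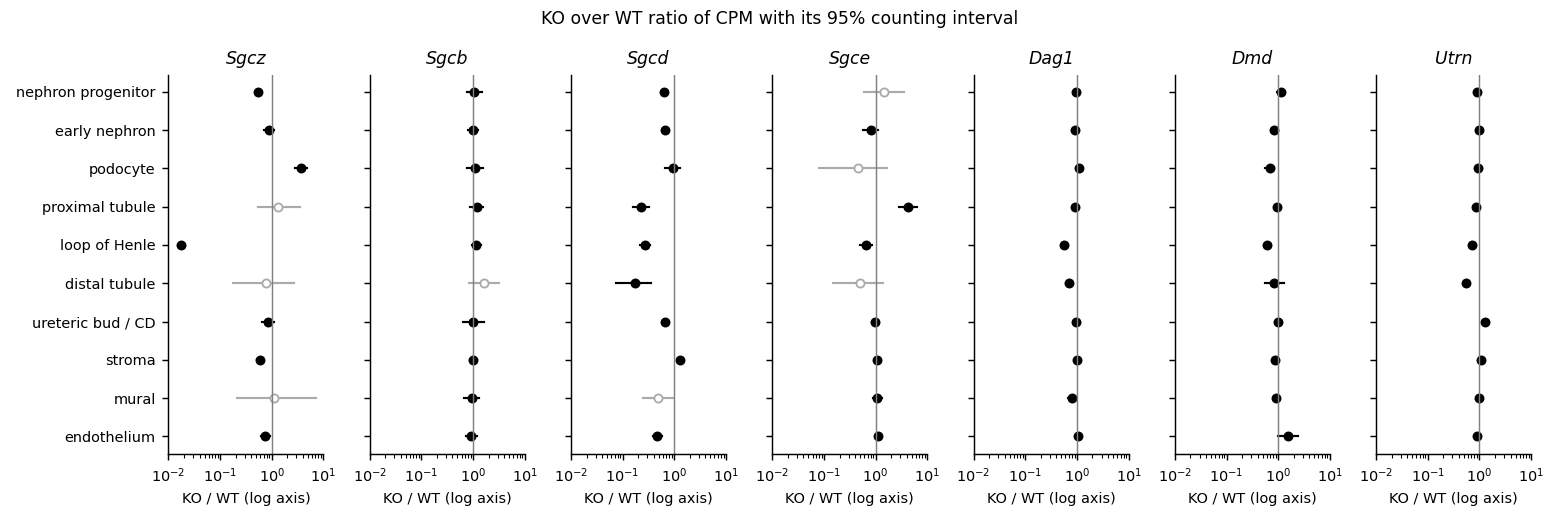
KO over WT ratio of CPM for the 7 genes in the 10 compared classes (log axis), with bars for the 95% counting interval and a vertical line at 1; open grey points have fewer than 50 UMIs in all. Sgcz in the loop of Henle class stands at 0.0178, Sgcd lies to the left of 1 in the tubule classes, Sgce in proximal tubule lies at 4.19, and Sgcb lies near 1.

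Dag1 encodes dystroglycan, the matrix receptor at the heart of the complex. Podocytes had its highest level, 696 CPM in WT and 767 CPM in KO, a ratio of 1.10 (1.05 to 1.16). The loop of Henle class came next in both libraries, at 516 and 294 CPM, from 7495 and 4447 UMIs. Its ratio of 0.569 (0.549 to 0.591) was the lowest for Dag1 among the 10 compared classes. Umod-rich cells gave 0.537 (0.511 to 0.565) and Umod-poor cells 0.636 (0.600 to 0.675), and in the finer clusters the levels were 481 CPM in WT and 271 CPM in KO for the mixed cluster and 275 CPM for the KO cluster. After thinning, Dag1 was seen in 65.4% of WT and 53.0% of KO loop of Henle cells.

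Elsewhere Dag1 stayed closer to its WT level. The ratio was 0.704 (0.621 to 0.795) in distal tubule, 0.805 (0.687 to 0.944) in mural cells, 0.906 (0.874 to 0.939) in early nephron cells and 0.911 (0.870 to 0.954) in proximal tubule. Intervals in nephron progenitors, ureteric bud and collecting duct, stroma and endothelium held 1. The 2 proximal tubule clusters differed, with 210 and 232 CPM in the larger and 451 and 267 CPM in the smaller one led by Serpina6 and Aadat.

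Dmd encodes dystrophin, of which kidney is known to make short forms from internal promoters. The highest level was in early nephron cells, 665 CPM in WT and 542 CPM in KO, from 14678 and 10054 UMIs. Most of it, 10970 WT and 7351 KO UMIs, came from the cluster led by Grid1 and Galntl6, in which Dmd stood at 1089 and 862 CPM, against 351 and 340 CPM in the cluster led by Lhx1 and Sfrp2. Mural cells followed at 308 and 277 CPM and proximal tubule at 205 and 195 CPM, while nephron progenitors stood at 17.7 and 20.3 CPM and endothelium at 2.97 and 4.51 CPM. By class, early nephron thus stood above proximal tubule and both above progenitors for Dmd in both libraries. The clusters did not keep this order. The proximal tubule cluster led by Serpina6 and Aadat stood at 435 and 438 CPM, above the early nephron cluster led by Lhx1 and Sfrp2. The early nephron cluster led by Dab1 and Rnase12 stood at 29.8 and 42.4 CPM. The cluster led by Grid1 and Galntl6 was named early nephron over proximal tubule by a lead of only 0.0526.

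In loop of Henle cells there were 2148 WT and 1336 KO Dmd UMIs, 148 and 88.3 CPM, a ratio of 0.597 (0.557 to 0.639). This value depends on how cells are weighted: it was 0.934 as a mean over cells and 1.10 after thinning, and the thinned shares of cells with Dmd were 20.3% in WT and 20.7% in KO. Dmd ran against Umod, with 222 CPM in Umod-poor and 65.6 CPM in Umod-rich WT cells and 186 and 42.1 CPM in KO cells. The ratio within those ranges was 0.838 (0.772 to 0.909) and 0.642 (0.561 to 0.734). In the mixed finer cluster the direction was opposite, 112 CPM in 152 WT cells and 186 CPM in 28 KO cells, and the KO cluster stood at 40.05 CPM. Early nephron cells gave 0.816 (0.796 to 0.837) and podocytes 0.696 (0.568 to 0.849), though the podocyte value was 1.12 with cells classed by their own markers and 1.22 after thinning.

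Utrn encodes utrophin, the widely expressed relative of dystrophin. It was the most even of the abundant members, from 213 CPM in stroma to 536 CPM in the loop of Henle class among WT classes other than immune cells, which stood at 96.2 CPM. In loop of Henle cells there were 7782 WT and 5823 KO UMIs, 536 and 385 CPM, a ratio of 0.718 (0.694 to 0.743), with 0.681 (0.647 to 0.716) among Umod-rich and 0.908 (0.866 to 0.952) among Umod-poor cells. In the mixed finer cluster it was 1.06 (0.972 to 1.16). Ureteric bud and collecting duct had the highest KO level, 560 CPM against 445 CPM in WT, a ratio of 1.26 (1.2 to 1.32). Distal tubule gave 0.559 (0.493 to 0.633) from 71 WT and 36 KO cells, but 1.07 with the finer clusters, so that value depends on which cells are called distal tubule.

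Counted by class, 5 of the 7 genes (Sgcz, Sgcd, Sgce, Dag1 and Dmd) stood at least 1.5-fold lower in KO loop of Henle cells, where 14.8% of the 14129 genes with at least 50 UMIs did so, and 0 stood at least 1.5-fold higher, against 9.94%. Sgcz was chosen on this contrast, so the count is only a description. The count was 2 at a fold of 2, Sgcz and Sgcd, and 3 when each cell was given equal weight or thinned. The median log2 ratio was -0.74 over the 7 genes and -0.67 without Sgcz, against -0.07 over all genes. In nephron progenitors 2 genes (Sgcz and Sgcd) were lower, beside 4.37% of all genes, and 0 higher, beside 4.21%. In early nephron cells Sgcd was lower, beside 5.14%, and 0 were higher, beside 4.97%. In podocytes Sgcz was higher, beside 8.90%, and 0 were lower, beside 6.17%. In distal tubule Sgcd and Utrn were lower, beside 14.7%, and 0 were higher, beside 12.2%. Outside the Six2 lineage, stroma had Sgcz lower, beside 3.02%, and 0 higher, beside 5.08%. That count leaves out the unnamed cluster led by Nrxn3 and Nts, where the Sgcz ratio was 15.4. Endothelium had Sgcd lower, beside 2.64%, and Dmd higher (32 and 78 UMIs), beside 3.66%. The interval of that Dmd ratio, 0.995 to 2.37, held 1, and the ratio ranged from 0.397 to 1.53 over ways of processing. Its clusters went opposite ways, with 0.453 (0.218 to 0.929) in that led by Sox17 and 3.11 (1.69 to 6.16) in that led by Plvap. Ureteric bud and collecting duct had 0 lower, beside 3.32%, and 0 higher, beside 4.97%. Mural cells had 0 lower, beside 4.75%, and 0 higher, beside 5.64%.

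Of 15 other partners of the complex, 8 had at least 50 UMIs in loop of Henle cells, of which 3 were at least 1.5-fold lower and 2 higher (median log2 ratio -0.19, against -0.07 over all genes). Over all genes 14.8% were lower and 9.94% higher by that measure. Sgca, the alpha sarcoglycan of muscle, had 1 WT and 0 KO UMIs. Nos1, the neuronal nitric oxide synthase that the complex anchors in muscle and that marks the macula densa in kidney, had 377 WT and 57 KO UMIs, a ratio of 0.145 (0.108 to 0.192). Nearly all its WT UMIs, 368, were in Umod-poor cells, against 51 in KO. In the mixed finer cluster, however, Nos1 stood at 34.5 CPM in WT and 33.4 CPM in KO (ratio 0.969, 0.683 to 1.34). Among the syntrophins, adaptors of dystrophin, Sntg2 had 402 and 163 (ratio 0.389, 0.322 to 0.468) and Sntb1 had 975 and 487 (ratio 0.479, 0.429 to 0.535).

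The ligands of dystroglycan are matrix and guidance proteins. Of 8 ligands 7 had enough UMIs, 4 were at least 1.5-fold lower and 0 higher, and the median log2 ratio was -0.66, beside 14.8% lower, 9.94% higher and a median of -0.07 over all genes. Slit2, an axon guidance protein that binds dystroglycan, went from 531 to 217 CPM (ratio 0.409, 0.393 to 0.426). Hspg2, which encodes perlecan, went from 103 to 43.8 CPM (ratio 0.426, 0.388 to 0.467). Lama5, a laminin chain of tubule basement membrane, had a ratio of 0.604 (0.549 to 0.665) and Agrn, agrin, 0.631 (0.585 to 0.681).

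The enzymes that build the sugar chains of dystroglycan stood mostly near 1. Of 17 genes 16 had enough UMIs, 1 was at least 1.5-fold lower and 1 higher, and the median log2 ratio was 0.02, beside the same shares of 14.8% and 9.94% over all genes. Pomk, the kinase that phosphorylates the core sugar, had 120 WT and 65 KO UMIs (ratio 0.520, 0.378 to 0.709). Dolk, dolichol kinase, had 181 and 296 UMIs (ratio 1.57, 1.30 to 1.90).

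**Figure D4:**
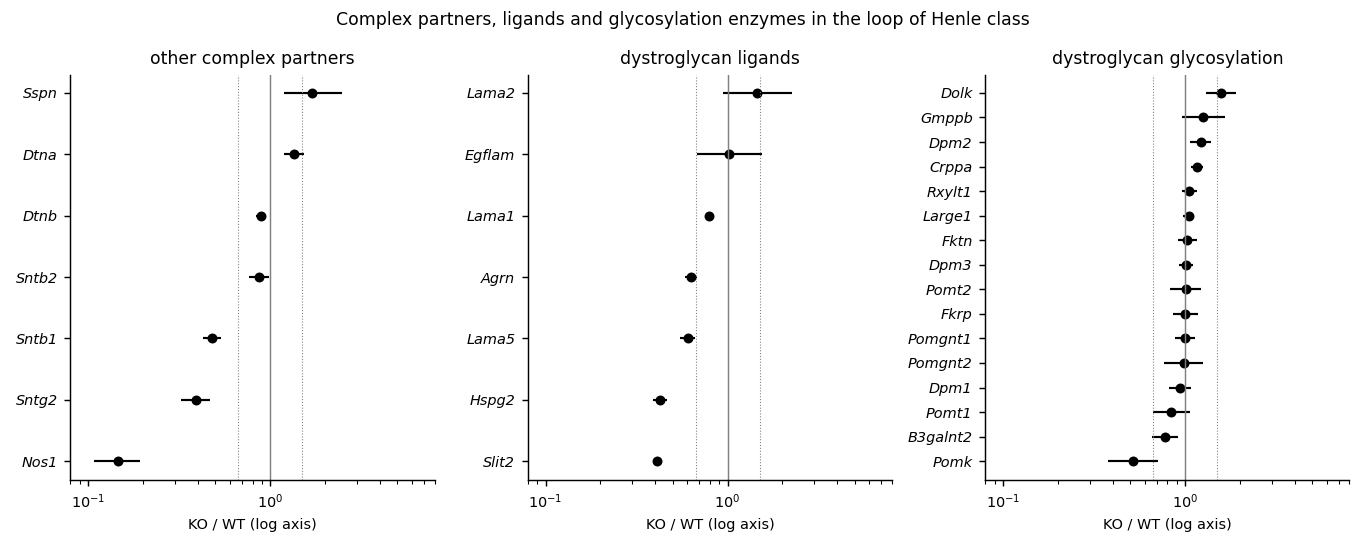
KO over WT ratio of CPM in the loop of Henle class (log axis) for the reported complex partners, dystroglycan ligands and dystroglycan glycosylation genes with at least 50 UMIs; bars are 95% counting intervals, the solid line marks 1 and dotted lines mark 1.5-fold. Nos1 lies lowest at 0.145, 4 ligands lie left of the lower dotted line, and most glycosylation genes lie close to 1.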

How the data were processed

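The deposited files hold raw UMI counts per gene and cell barcode, 1 matrix for each of 2 libraries. The libraries come from a 10x 3′ kit, per the labels' protocols. Cell Ranger 7.0.0 made the WT matrix and 7.1.0 the KO matrix, per the file headers. The submitters' processing notes name bcl2fastq 2.20.0, STAR 2.7.2a and build GRCm38 (mm10). Annotation and intron handling: not given in the sources used here, which bears on the long genes Sgcz, Sgcd, Dmd and Utrn.

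Cells needed at least 1000 UMIs, 500 genes and at most 20% mitochondrial UMIs, which 4187 WT and 5040 KO barcodes passed. The cells with the highest Scrublet scores, as many as the loading predicts, were removed as doublets (187 and 242), since the tool's own threshold called 52 and 58. Clustering in scanpy 1.11.5 used 2000 variable genes, from which the members and listed genes were left out, 40 components, 20 neighbours and Leiden resolution 1, without integrating the libraries. A cluster took a class name at a scaled marker score of at least 0.35 with a lead of 0.05, after mixed clusters were divided at resolution 0.2. These thresholds were set after seeing the data. Intercalated and immune cells were too few to be compared over all genes.

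UMIs were summed per class and library and given as CPM of nuclear-encoded UMIs, with exact Poisson intervals, and ratios carry exact conditional intervals. A pseudocount of 0.5 UMI enters median log2 ratios. Counts over lists took genes with at least 50 UMIs over both libraries. The members and gene lists were chosen with earlier results of these data known. Named genes are all members, at most 4 genes per list past 1.5-fold (ranked by the interval bound nearest to 1) and the 8 genes most like Sgcz among those with at least 200 UMIs. The code for intervals and thinning was checked on simulated counts. TMM (edgeR 4.0.16) and median-of-ratios (DESeq2 1.42.0) factors served as scaling alternatives only, beside other filters, resolutions and class rules. With 1 library per genotype no test across samples was possible. Values of 2 listed partners are not reported here, though the list counts include them.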

Additional observations from a re-analysis of the deposited data

Results flagged for a closer look

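A pair of members stood at least 1.5-fold off in opposite directions in different classes, with counting intervals clear of 1. The difference between classes was not tested, since each genotype has 1 library. Sgcz had a ratio of 3.71 in podocytes, against 0.532 in nephron progenitors, 0.0178 in loop of Henle cells and 0.592 in stroma. The stroma value leaves out the unnamed cluster led by Nrxn3 and Nts, where the Sgcz ratio was 15.4. Sgce had a ratio of 4.19 in proximal tubule, against 0.660 in loop of Henle cells, where giving each cell equal weight turned it to 1.24 and the mixed finer cluster gave 0.985.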

How the results depend on the processing

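No paired analysis was possible because each genotype has 1 library with no replicate number, and for the same reason no replicate could be left out. The loop of Henle class held 92 to 235 WT and 163 to 282 KO cells over the settings. The Sgcz ratio there was 0.0112 at Leiden resolution 2, 0.0143 with cells classed by their own markers, 0.0106 at 10% mitochondrial UMIs, 0.0116 at 2000 UMIs per cell, 0.0234 without doublet removal, 0.0117 with members and listed genes kept in clustering and 0.00737 after thinning. The thinned ratio comes from 1 random draw. As a mean over cells the Sgcz level was 717 CPM in WT and 14.7 CPM in KO, and unthinned shares were 50% and 16.5%. Members lower in loop of Henle cells numbered 2 at a fold of 2, 3 as a mean over cells and 3 after thinning, and 4 to 6 in the other settings, against 5 in the report. At a fold of 2, 1 partner was higher, 2 ligands were lower, and 0 glycosylation genes were lower and 0 higher. With TMM and with median-of-ratios scaling 1 ligand was higher. Ranking by Spearman correlation kept 1 of the 8 genes most like Sgcz.

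Of 670 other values for 61 member ratios, 497 stayed within the counting interval, 151 moved beyond it in the same direction or without a clear one, and 22 changed direction. As a mean over cells these were Sgcz in endothelium (1.34), Sgce in loop of Henle (1.24), Dmd in proximal tubule (1.15) and Utrn in early nephron (1.07). After thinning they were Dag1 in podocytes (0.951), Dmd in podocytes (1.22), proximal tubule (1.25) and loop of Henle (1.10), and Utrn in early nephron (1.08), stroma (0.936) and endothelium (1.02). With cells classed by their own markers they were Sgcd in early nephron (1.18), Dmd in podocytes (1.12) and Utrn in stroma (0.987). Without doublet removal they were Sgcd in early nephron (1.25), Utrn in distal tubule (1.02) and Utrn in stroma (0.992). At 10% mitochondrial UMIs they were Utrn in early nephron (1.01) and distal tubule (1.36), and at Leiden resolution 2 Utrn in distal tubule (1.07). Without finer clusters held at 90% or more by 1 library, a setting chosen after seeing the data, they were Dmd (1.32) and Utrn (1.13) in proximal tubule. The cause was not tested. Total-count and other scalings differed by at most 0.08 on the log2 scale. Sums under 50 UMIs limit Sgcz in proximal and distal tubule and mural cells and Sgce in nephron progenitors, podocytes and distal tubule. They also limit Sgcb in distal tubule and Sgcd in mural cells.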

Other observations

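Outside the loop of Henle class Umod stood at 0 to 5.80 CPM in the WT classes and at 3.51 to 10.6 CPM in the KO classes. Sgcz UMIs per Umod UMI were 1.13 in WT and 0.00483 in KO loop of Henle cells. The same quotient was 411 in WT and 32.5 in KO nephron progenitors, 16.4 and 8.81 in podocytes, and 0.152 and 0.133 in proximal tubule. In these classes it rests on few Umod UMIs: 15 in WT and 69 in KO progenitors, 5 and 21 in podocytes, 66 and 90 in proximal tubule. The quotient moves with Umod as well as with Sgcz, and in podocytes Sgcz itself was higher in KO.

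Dtna, which encodes dystrobrevin alpha, a binding partner of dystrophin, was chosen after its values were seen. It had 1071 WT and 1467 KO UMIs in podocytes, 202 and 455 CPM, a ratio of 2.25 (2.08 to 2.44). Early nephron cells gave 1.87 (1.72 to 2.04), proximal tubule 1.96 (1.52 to 2.54), nephron progenitors 1.59 (1.51 to 1.68) and loop of Henle cells 1.34 (1.18 to 1.53). Outside the Six2 lineage the ratio was 1.34 (1.09 to 1.64) in ureteric bud and collecting duct and 1.52 (0.921 to 2.58) in stroma, from 23 and 57 UMIs. Distal tubule differed, with 80 and 18 UMIs and a ratio of 0.434 (0.245 to 0.731). These differences were not tested.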
